A study of Mus musculus with 8 samples.

Results

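Heat shock and endoplasmic reticulum (ER) stress genes encode the chaperones, folding enzymes and transcription factors that cells make when proteins misfold. The set was given as a list of 40 gene names: 16 cytosolic chaperones and co-chaperones, the 2 genes of the mitochondrial chaperonin, 13 folding genes of the ER, 4 genes of the XBP1 and ER-associated degradation (ERAD) branch, and 5 genes of the ATF4 arm. Of the 40, 39 had a probe named by its RefSeq accession, out of 21368 genes named on the array, and all 39 were tested among 16618 genes. Hspa1b had no probe so named and was not analysed here.

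The Hydroxyurea group held 4 female mice given 45 mg/kg/day of hydroxyurea, an inhibitor of ribonucleotide reductase, in drinking water for 10 weeks; Hydroxyurea 1 and 2 were 24 weeks old at the end and Hydroxyurea 3 and 4 were 19 weeks old. The Control group held 4 untreated female mice of 19 weeks. All 8 were nontransgenic littermates from the APPswe/PSEN1dE9 line on a C57BL/6J background, so none carried the Alzheimer transgenes, and cages were shared in a way the labels do not detail. RNA of the hippocampus of each mouse was read on its own 1-colour Agilent array. Each group filled its own row of a single slide, so the row cannot be told apart from the treatment. Nor can age and the age at which treatment began, and no Control mouse was 24 weeks old.

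In the cytosol, misfolded proteins release the transcription factor HSF1, which binds heat shock elements and drives genes of the HSP70, HSP90, HSP40 and small heat shock protein families. In the ER, the sensors IRE1, ATF6 and PERK answer unfolded proteins: ATF6 and spliced XBP1 raise ER chaperones and ERAD genes, and PERK, through phosphorylated eIF2alpha, raises translation of ATF4, whose targets include Ddit3, Trib3, Chac1 and Asns. In brain, neurons, glia and vessels all carry these genes, and several small heat shock proteins are enriched in glia or vessel walls.

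The promoters of these genes differ by branch in the motifs they hold, and the stretches with matches are given here because the values below are grouped by branch. RefSeq promoters of build GRCm38.p6, from 250 bases before to 50 bases after each gene start, were found for 34 of the 40 genes, in 40 windows because 5 genes have several starts. Cryab, Hsp90aa1, Hsp90ab1, Hspa8, Hyou1 and Manf were not matched. Motifs were searched on both strands among these windows and among all 32851 windows of the table, and a match is a string of letters and not a site shown to be bound.

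Heat shock elements are runs of GAA units in alternating direction. The head to head pair GAANNTTC was found for 8 of 12 cytosolic genes with a window (Bag3, Chordc1, Dnaja1, Fkbp4, Hspa1a, Hspa1b, Hspb1 and Hsph1), for both mitochondrial genes and for Asns, and in 7.86% of all windows. The tail to tail pair TTCNNGAA was found for 3 of 12 cytosolic genes and for both mitochondrial genes, and in 8.52% of all windows. The longer run of 3 units, GAA, TTC and GAA with 2 bases between neighbours, holds both pairs overlapping by 1 unit. It was found for Chordc1, Hsph1, Hspd1 and Hspe1, and in 0.603% of all windows. Capitals mark the GAA and TTC units of the matched pairs, written on the strand of the gene.
Hspa1a, chr17:34972236-34972285, minus strand: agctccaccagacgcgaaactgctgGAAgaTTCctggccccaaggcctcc
Hspa1b, chr17:34959318-34959367, minus strand: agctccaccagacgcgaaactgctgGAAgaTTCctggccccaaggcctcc
Hspb1, chr5:135887790-135887839, plus strand: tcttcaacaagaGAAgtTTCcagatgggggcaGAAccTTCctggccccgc
Hspd1, chr1:55088047-55088086, minus strand: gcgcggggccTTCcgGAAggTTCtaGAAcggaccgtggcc
Chordc1, chr9:18292253-18292286, plus strand: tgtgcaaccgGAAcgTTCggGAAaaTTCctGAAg
The stretches of Hspa1a and Hspa1b, neighbouring copies that encode the inducible HSP70, read the same, and their whole windows were identical at 296 of 300 bases (98.7%). Whether the Hspa1a probe also reads Hspa1b RNA was not tested. Hspd1 and Hspe1, which encode the chaperonin HSP60 and its lid HSP10, lie head to head, their windows share 285 bases, and the run of units at chr1:55088059-55088076 is the same piece of DNA for both.

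The ER stress element, CCAAT and CCACG with 9 bases between them, to which ATF6 and XBP1 bind with NF-Y, was found for 6 of 11 ER folding genes with a window (Calr, Creld2, Dnajc3, Hsp90b1, Hspa5 and Pdia6), for 0 genes of the other branches, and in 0.119% of all windows. A shorter form that ends in CCA in place of CCACG, and which every such match also holds, added Pdia3, Pdia4, Herpud1 and Sel1l and was found in 1.09% of all windows. Capitals mark both ends of the element, which reads CGTGG and ATTGG where it lies on the other strand, and Hsp90b1 holds 2 of them.
Hspa5, chr2:34772015-34772054, plus strand: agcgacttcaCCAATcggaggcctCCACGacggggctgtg
Hsp90b1, chr10:86705527-86705666, minus strand: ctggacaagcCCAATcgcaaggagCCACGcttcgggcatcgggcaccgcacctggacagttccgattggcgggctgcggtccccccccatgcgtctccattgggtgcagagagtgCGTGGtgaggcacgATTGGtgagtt
Calr, chr8:84847064-84847103, minus strand: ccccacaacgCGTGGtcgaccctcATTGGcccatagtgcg
Pdia6, chr12:17266481-17266520, plus strand: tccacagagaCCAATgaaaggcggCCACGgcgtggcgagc
Dnajc3, chr14:118937817-118937856, plus strand: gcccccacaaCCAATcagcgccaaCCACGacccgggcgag
Creld2, chr15:88819510-88819549, plus strand: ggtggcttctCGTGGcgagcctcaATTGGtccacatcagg
The C/EBP-ATF element TGATGNAA, to which ATF4 binds with a C/EBP partner, was found for Asns, Chac1 and Trib3 of the 5 ATF4 arm genes and for Herpud1, and in 3.97% of all windows. With the middle base fixed as TGATGCAA it remained in Chac1 and Herpud1 and in 0.895% of all windows. Capitals mark the fixed letters, which appear as TT and CATCA where the match lies on the other strand, and in Asns the match overlaps the heat shock pair.
Chac1, chr2:119351034-119351073, plus strand: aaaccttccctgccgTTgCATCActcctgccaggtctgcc
Asns, chr6:7693210-7693247, minus strand: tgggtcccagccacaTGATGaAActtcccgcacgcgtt
Herpud1, chr8:94386301-94386340, plus strand: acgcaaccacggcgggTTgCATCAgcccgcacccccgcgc
Trib3, chr2:152344031-152344056, minus strand: tagctcaggtTTaCATCAgccgggcg

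**Figure D1:**
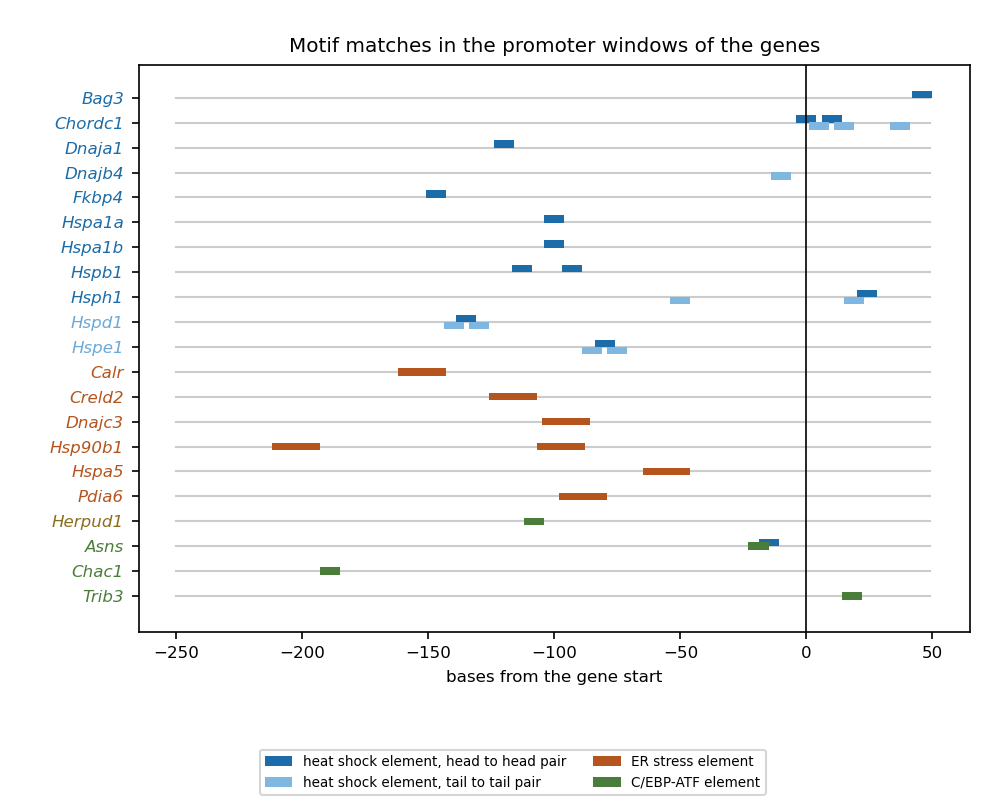
Matches to the heat shock pairs, the ER stress element and the C/EBP-ATF element, by position in bases from the gene start (0) along the promoter window of each gene with a match. Each line is 1 window, that with the most matches for genes with several starts; heat shock pairs lie in cytosolic and mitochondrial genes and Asns, and the ER stress element in 6 ER folding genes.

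The comparison asks whether long hydroxyurea treatment left these stress programmes at another level in the hippocampus. No gene of the set passed. At an adjusted p under 0.05 (limma, Benjamini-Hochberg over all genes tested), 0 of the 39 were called, and 0 of all 16618 genes (0%). At an unadjusted p under 0.05, 2 of 39 were called (5.13%), against 9.89% of all genes. These were Stip1, with higher values (1 of 39, or 2.56%, against 3.53% of all genes), and Xbp1, with lower values (2.56%, against 6.36%). The groups failed to overlap for 1 gene, Xbp1 (2.56%, against 7.5% of all genes). Of the 39 genes, 21 had higher and 18 had lower means in Hydroxyurea mice (53.8% higher, against 48.7% of all genes), and the median log2 fold change was 0.0056, against -0.0038 over all genes. The split into higher and lower depended on the scaling: it was 9 to 30 with the arrays centred on their medians, 19 to 20 with quantile scaling, 17 to 22 with normexp background correction and 32 to 7 in the deposited z scores. Of all genes at an unadjusted p under 0.05, 64.3% were lower, and this share was 90.8% with median centring, 54.4% in the deposited z scores and 39.3% with no filter on dim probes.

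The 95% intervals are those of single genes under the main scaling, without adjustment for the number of genes. They do not measure which changes the comparison could miss. The 95% interval of the fold change lay within 1.5-fold in either direction for 36 of 39 genes (92.3%), against 77.7% of all genes. The exceptions were Hspb1, Hspa8 and Pdia4. All 39 probes were well above background on all 8 arrays, and 0 spots were saturated. Genes tested needed this on only 4 or more arrays, so the 2 shares cover genes of unlike brightness.

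**Figure D2:**
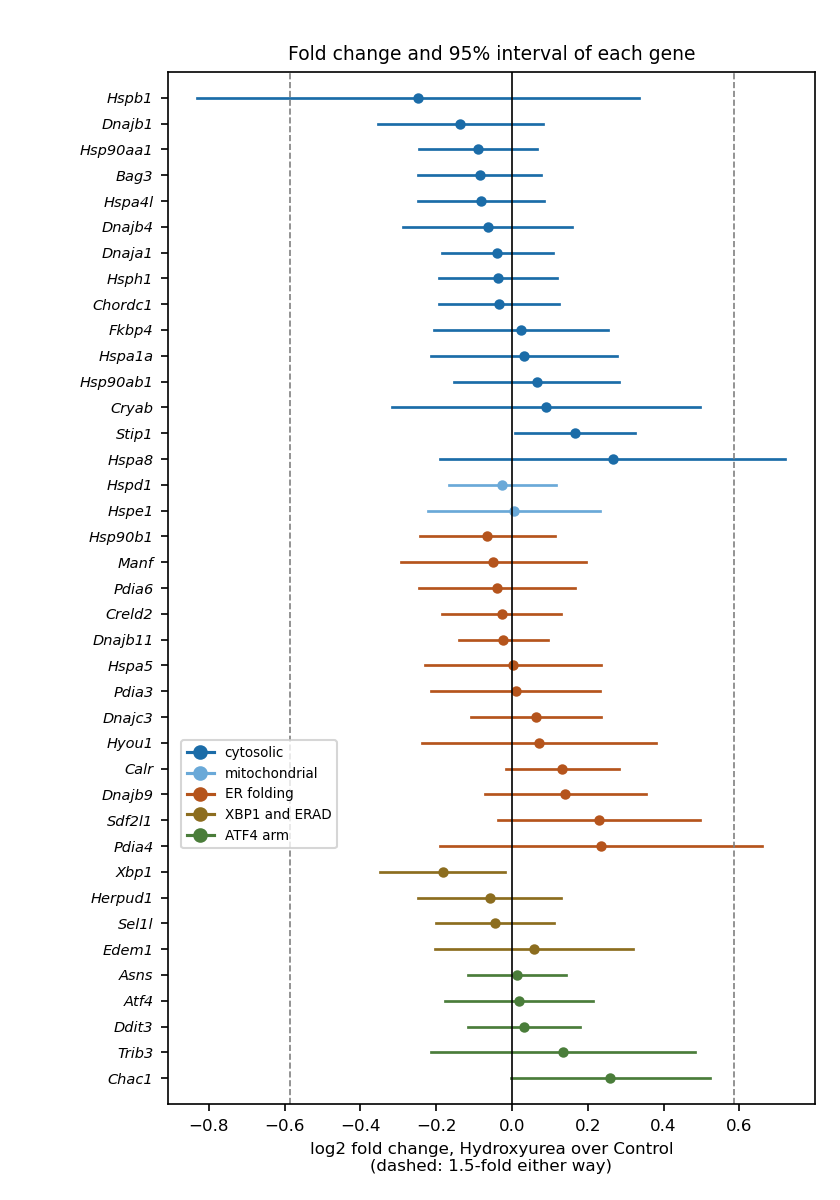
Log2 fold change (point) of Hydroxyurea over Control with its 95% interval (line) from limma for the 39 genes, grouped by branch, n = 4 mice per group. Dashed lines mark 1.5-fold either way; the intervals of Hspb1, Hspa8 and Pdia4 cross them, and those of Stip1 and Xbp1 leave out 0.

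Values below are log2 of the processed signal minus the log2 75th percentile of the same array, so 0 is the brightness of the 75th percentile probe, and levels of different genes are not compared. The cytosolic branch had 6 genes with higher and 9 with lower means (3 and 12 with median centring, 11 and 4 in the deposited z scores), and a median log2 fold change of -0.04. Stip1, the adaptor HOP that hands clients from HSP70 to HSP90, had 2.13, 2.32, 2.36 and 2.23 in Hydroxyurea 1 to 4, against 2.07, 2.19, 2.07 and 2.06 in Control 1 to 4. Hydroxyurea 1 lay below Control 2, so the groups overlapped, and the other Hydroxyurea mice lay above every Control mouse. The log2 fold change was 0.17 ± 0.07 (SE, n = 4 per group), or 1.12-fold, with an unadjusted p of 0.0424 and an adjusted p of 0.496 in limma. The unadjusted p was 0.0937, 0.116 and 0.0632 without Hydroxyurea 2, 3 or 4, and 0.0703, 0.0837 and 0.0972 without Control 1, 3 or 4, each left out alone. With median centring the log2 fold change was 0.08 (unadjusted p of 0.323 in limma). In 8 of 19 other settings the unadjusted p of Stip1 was under 0.05, and its sign turned in 0.

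The HSP70 and HSP90 genes overlapped between groups. Hspa1a, the inducible HSP70 gene that marks acute heat shock, had -0.67, -0.62, -0.68 and -0.77 in Hydroxyurea 1 to 4, against -0.97, -0.66, -0.46 and -0.78 in Control 1 to 4. The Hydroxyurea values lay inside the Control range, and the log2 fold change was 0.03 ± 0.11. Hspa8, the constitutive HSP70, had 6.91, 7.66, 7.07 and 6.79 in Hydroxyurea 1 to 4, against 6.87, 7.07, 6.54 and 6.88 in Control 1 to 4. Hydroxyurea 2 and Control 3 stood at the ends, the other mice overlapped, and the log2 fold change was 0.27 ± 0.20. It was 0.08 without Hydroxyurea 2, 0.17 without Control 3 and 0.09 in 19-week mice only. Another pair of Hspa8 probes gave 0.02 and 0.11. Hsp90aa1, the inducible cytosolic HSP90, had 6.04, 5.96, 5.90 and 5.92 in Hydroxyurea 1 to 4, against 5.94, 6.15, 6.09 and 6.00 in Control 1 to 4. Overlapping values left a log2 fold change of -0.09 ± 0.07. Hsp90ab1, the constitutive form, had 0.07 ± 0.09. Hsph1, the nucleotide exchange factor HSP110, had 4.81, 4.79, 4.88 and 4.75 in Hydroxyurea 1 to 4, against 4.80, 4.99, 4.76 and 4.84 in Control 1 to 4. The groups overlapped, with a log2 fold change of -0.04 ± 0.07 and -0.14 on a second probe. Hspa4l, a relative of Hsph1, had -0.08 ± 0.07.

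Among the J-domain co-chaperones, which pass clients to HSP70, Dnajb1 had 4.23, 4.25, 4.34 and 4.33 in Hydroxyurea 1 to 4, against 4.25, 4.41, 4.68 and 4.36 in Control 1 to 4. Control 3 was the highest, Hydroxyurea mice lay at the low end with Control 1, and the log2 fold change was -0.14 ± 0.09 (-0.05 without Control 3). Dnaja1 had -0.04 ± 0.06, with the other sign on a second probe (0.06), and Dnajb4 had -0.06 ± 0.10. Bag3, which links HSP70 to autophagy, had -0.09 ± 0.07. Chordc1, an HSP90 co-chaperone, had -0.03 ± 0.07, and Fkbp4, the immunophilin of steroid receptor complexes, had 0.02 ± 0.10.

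The small heat shock proteins, which hold unfolded proteins without using ATP, varied widely between mice of the same group. Hspb1, the HSP25 of mouse, had 1.66, 1.58, 1.67 and 2.39 in Hydroxyurea 1 to 4, against 1.64, 1.96, 2.67 and 2.02 in Control 1 to 4. Hydroxyurea 4 and Control 3 were far above the other mice of their own groups, which overlapped, and the log2 fold change was -0.25 ± 0.25. It was -0.43 without Hydroxyurea 4, -0.39 without Control 1, -0.05 without Control 3 and -0.04 in 19-week mice only. Its SD within groups, 0.405, was the highest of the 39 genes and stood at the 88.9 percentile of all genes tested. Markers of endothelial and mural cells had their highest mean centred values in the same mice: they were -0.09, -0.00, -0.07 and 0.06 in Hydroxyurea 1 to 4, against -0.15, 0.03, 0.22 and 0.01 in Control 1 to 4. The choroid plexus and ependymal markers given further on were also highest within each group in Hydroxyurea 4 and Control 3, and they spanned a wider range. Cryab, the alphaB-crystallin of oligodendrocytes and astrocytes, had 4.18, 3.61, 3.99 and 4.35 in Hydroxyurea 1 to 4, against 4.15, 3.63, 4.06 and 3.93 in Control 1 to 4. Both groups had 1 low mouse, Hydroxyurea 2 and Control 2, the rest overlapped, and the log2 fold change was 0.09 ± 0.18 (-0.01 on a second probe with the same low mice). Oligodendrocyte markers were also lowest in those mice, at 0.13, -0.35, 0.12 and 0.25 in Hydroxyurea 1 to 4, against 0.16, -0.30, 0.02 and -0.04 in Control 1 to 4. Astrocyte markers were not, at -0.03, 0.10, -0.06 and 0.05 in Hydroxyurea 1 to 4, against -0.01, -0.02, -0.09 and 0.06 in Control 1 to 4. They were highest in Hydroxyurea 2 and lowest in Control 3. All 8 vessel, all 7 oligodendrocyte and all 5 astrocyte markers were detected. The summed linear signal over the 75th percentile was 30.4 to 35.8 in Hydroxyurea and 30.1 to 42.4 in Control mice for the vessel list. For the oligodendrocyte list it was 141 to 196 in Hydroxyurea and 148 to 187 in Control mice. For the astrocyte list it was 33.5 to 39.5 in Hydroxyurea and 32.8 to 36.1 in Control mice. The part of cell content in either gene was not tested, and in tissue RNA more cells of a type and more RNA per cell cannot be told apart.

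The mitochondrial chaperonin genes overlapped between groups. Hspd1 had 4.57, 4.62, 4.60 and 4.59 in Hydroxyurea 1 to 4, against 4.52, 4.74, 4.60 and 4.62 in Control 1 to 4. Hspe1 had 4.25, 4.46, 4.38 and 4.35 in Hydroxyurea 1 to 4, against 4.09, 4.49, 4.40 and 4.44 in Control 1 to 4. For both genes the Hydroxyurea values lay inside the Control range, and Control 2 was the highest and Control 1 the lowest mouse. Log2 fold changes were -0.02 ± 0.06 for Hspd1 and 0.01 ± 0.10 for Hspe1, whose other probes gave -0.05 and -0.01.

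**Figure D3:**
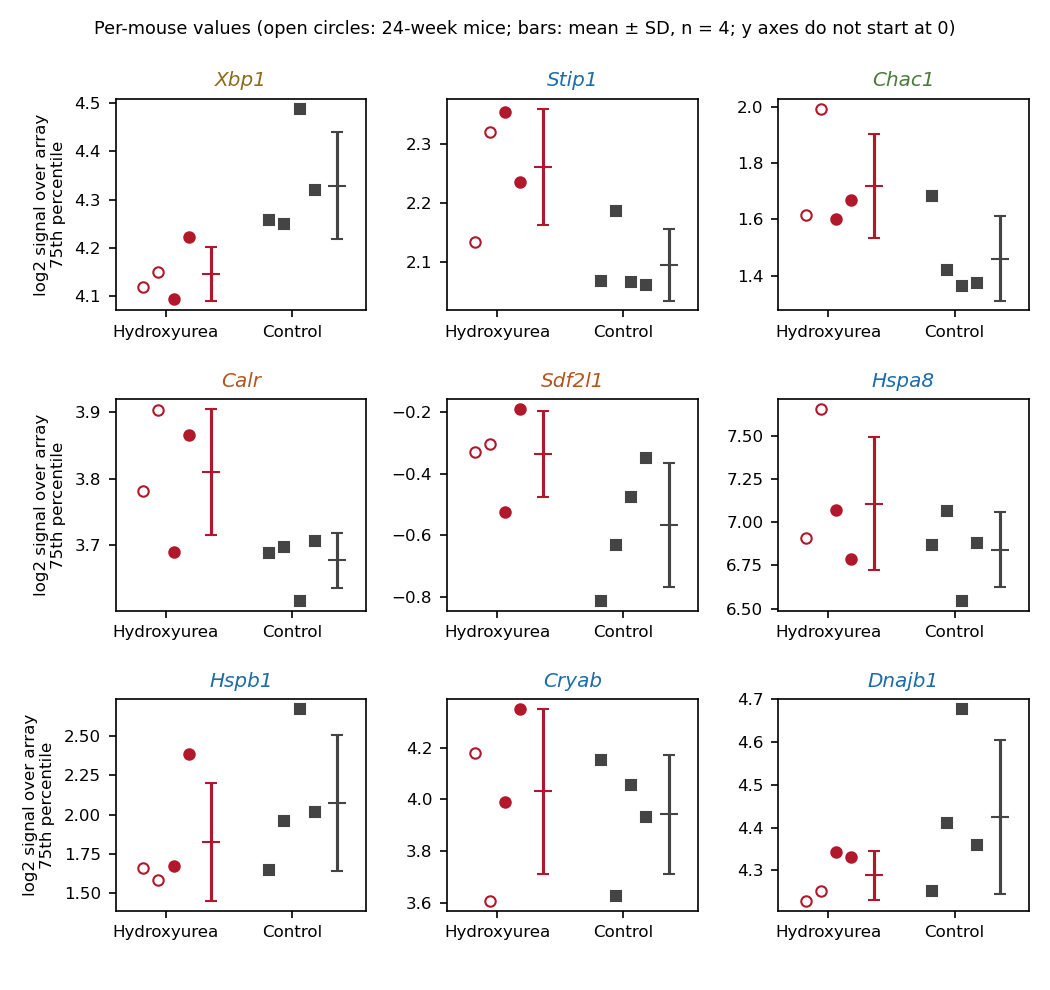
Log2 signal over the array's 75th percentile for 9 genes in each mouse, Hydroxyurea left of Control, with mean ± SD bars beside the points (n = 4); open circles are the 24-week mice, and axes do not start at 0. Only Xbp1 shows groups without overlap among these, and single mice stand apart for Hspa8, Hspb1, Cryab and Dnajb1.

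The ER folding branch had 8 genes with higher and 5 with lower means (4 and 9 with median centring, 12 and 1 in the deposited z scores), and a median log2 fold change of 0.01. Hspa5, the HSP70 BiP that restrains the ER sensors and is the usual readout of ER stress, had 4.69, 4.52, 4.48 and 4.81 in Hydroxyurea 1 to 4, against 4.43, 4.62, 4.73 and 4.71 in Control 1 to 4. Means of both groups were 4.62, with SDs of 0.15 in Hydroxyurea and 0.14 in Control mice, and the log2 fold change was 0.00 ± 0.10 (95% interval -0.23 to 0.24). Hsp90b1, the ER HSP90, had 4.75, 4.67, 4.63 and 4.87 in Hydroxyurea 1 to 4, against 4.92, 4.73, 4.82 and 4.71 in Control 1 to 4. Its values overlapped, with a log2 fold change of -0.06 ± 0.08.

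The smallest unadjusted p of this branch belonged to Calr, the lectin chaperone and calcium store protein calreticulin, which had 3.78, 3.90, 3.69 and 3.87 in Hydroxyurea 1 to 4, against 3.69, 3.70, 3.61 and 3.71 in Control 1 to 4. Hydroxyurea 3 lay among the Control mice and the other Hydroxyurea mice lay above them, with a log2 fold change of 0.13 ± 0.07 (unadjusted p of 0.0745 in limma, adjusted p = 0.537). The unadjusted p in limma was 0.0333 without Hydroxyurea 3, and with median centring the log2 fold change was 0.05. Sdf2l1, a partner of BiP that ER stress induces strongly, had -0.33, -0.30, -0.53 and -0.19 in Hydroxyurea 1 to 4, against -0.81, -0.63, -0.47 and -0.35 in Control 1 to 4. Hydroxyurea 3 again overlapped with Control mice, and the log2 fold change was 0.23 ± 0.12. It was 0.15 without Control 1, and the unadjusted p in limma was 0.0434 without Hydroxyurea 3 and 0.0323 without Control 4. Dnajb9, the J-domain partner ERdj4 that acts on IRE1, had 1.79, 1.72, 1.87 and 1.88 in Hydroxyurea 1 to 4, against 1.92, 1.63, 1.55 and 1.60 in Control 1 to 4. Control 1 was the highest mouse and the other Control mice lay below every Hydroxyurea mouse, with a log2 fold change of 0.14 ± 0.09 and 0.01 on a second probe. It was 0.22 without Control 1 (unadjusted p of 0.00868 in limma) and 0.06 with median centring. Pdia4, a disulfide isomerase, had -0.38, -0.63, -0.92 and -0.70 in Hydroxyurea 1 to 4, against -0.42, -0.97, -1.24 and -0.93 in Control 1 to 4. Control 1 again lay with the highest mice, and the log2 fold change was 0.23 ± 0.18. It was 0.14 without Hydroxyurea 1, 0.12 without Control 3, 0.08 in 19-week mice only and 0.39 without Control 1, where the unadjusted p in limma was 0.0277. With the replicate block the unadjusted p in limma was 0.032.

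The other ER folding genes had log2 fold changes from -0.05 to 0.07. Dnajb11, a BiP co-chaperone, had -0.02 ± 0.05 and the smallest SD within groups of the 39 genes, 0.0326, at the 0.427 percentile of all genes. A dim second probe, well above background on 5 of 8 arrays, gave -0.30. Pdia3 and Pdia6, disulfide isomerases, had 0.01 ± 0.10 and -0.04 ± 0.09. A second Pdia6 probe gave 0.41, with Control 1 at -0.07 and the other Control mice at 1.66 to 1.76, against 1.56 to 1.78 in Hydroxyurea mice. The median coefficient of variation of repeated spots was 12.9% on the Control 1 array, against 3.72% to 4.44% on the others. Dnajc3, the PERK inhibitor P58IPK, had 0.06 ± 0.07. Creld2 and Manf, secreted proteins induced by ER stress, had -0.03 ± 0.07 and -0.05 ± 0.11. Hyou1, the ER HSP110, had 0.07 ± 0.13.

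Xbp1 was the only gene of the set whose groups did not overlap. Its spliced form is the transcription factor made by IRE1, and the array probe was not examined for which form it reads. Xbp1 had 4.12, 4.15, 4.09 and 4.22 in Hydroxyurea 1 to 4, against 4.26, 4.25, 4.49 and 4.32 in Control 1 to 4. The highest Hydroxyurea mouse lay just below the lowest Control mouse, and Control 3 was the highest of all. The log2 fold change was -0.18 ± 0.07 (SE, n = 4 per group), or 0.881-fold, with an unadjusted p of 0.0336 and an adjusted p of 0.494 in limma. The limma p was 0.0738, 0.057 and 0.0849 without Hydroxyurea 1, 2 or 3, and 0.071 and 0.0633 without Control 3 or 4, each left out alone, and 0.137 in 19-week mice only. Without Control 3 the log2 fold change was -0.13, and with median centring it was -0.26 (unadjusted p of 0.026 in limma). In 11 of 19 other settings the unadjusted p of Xbp1 was under 0.05, and its sign turned in 0. Herpud1, an ERAD scaffold at the ER membrane, had 2.40, 2.37, 2.59 and 2.64 in Hydroxyurea 1 to 4, against 2.48, 2.55, 2.67 and 2.53 in Control 1 to 4. The 24-week Hydroxyurea mice were the lowest and the 19-week ones lay in the upper Control range, with a log2 fold change of -0.06 ± 0.08. Sel1l, the partner of the ERAD ligase HRD1, had 1.66, 1.70, 1.70 and 1.85 in Hydroxyurea 1 to 4, against 1.66, 1.81, 1.84 and 1.77 in Control 1 to 4. Edem1, which draws misfolded glycoproteins to ERAD, had 0.73, 0.22, 0.44 and 0.62 in Hydroxyurea 1 to 4, against 0.46, 0.33, 0.49 and 0.49 in Control 1 to 4. Both sets of values overlapped, with log2 fold changes of -0.04 ± 0.07 for Sel1l and 0.06 ± 0.11 for Edem1.

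In the ATF4 arm 5 of 5 genes had higher means, with a median log2 fold change of 0.03, and 0 were called. Under median centring and under normexp 2 of the 5 were higher, and without Hydroxyurea 2, the array with the lowest 75th percentile, 3 of the 5. Chac1, which breaks down glutathione and is a sensitive ATF4 target, had 1.62, 1.99, 1.60 and 1.67 in Hydroxyurea 1 to 4, against 1.68, 1.42, 1.36 and 1.37 in Control 1 to 4. Control 1 lay among the Hydroxyurea mice and the other Control mice below all of them, and the log2 fold change was 0.26 ± 0.11 (unadjusted p of 0.0519 in limma, adjusted p = 0.509). The log2 fold change was 0.17 without Hydroxyurea 2, 0.16 with normexp and 0.33 without Control 1, where the unadjusted p in limma was 0.0157. The unadjusted p was under 0.05 in 7 of 19 other settings. Trib3, a pseudokinase that feeds back on ATF4, had -2.44, -2.10, -2.73 and -2.16 in Hydroxyurea 1 to 4, against -2.35, -2.73, -2.46 and -2.44 in Control 1 to 4. Hydroxyurea 2 and 4 lay above the Control mice and Hydroxyurea 3 with the lowest of them, with a log2 fold change of 0.13 ± 0.15. It was 0.05 without Hydroxyurea 2, 0.07 without Hydroxyurea 4, 0.06 without Control 2 and 0.26 without Hydroxyurea 3.

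The remaining genes of the arm had log2 fold changes near 0. Atf4 itself, controlled mostly at translation, had 5.56, 5.91, 5.65 and 5.71 in Hydroxyurea 1 to 4, against 5.75, 5.63, 5.75 and 5.63 in Control 1 to 4. Hydroxyurea 2 was the highest and Hydroxyurea 1 the lowest mouse, and the log2 fold change was 0.02 ± 0.08 (0.10 on a second probe). Ddit3, the factor CHOP that is tied to cell death in prolonged ER stress, had 0.29, 0.39, 0.28 and 0.29 in Hydroxyurea 1 to 4, against 0.24, 0.21, 0.26 and 0.40 in Control 1 to 4. Asns, asparagine synthetase, had 4.75, 4.82, 4.82 and 4.68 in Hydroxyurea 1 to 4, against 4.76, 4.79, 4.75 and 4.73 in Control 1 to 4. The groups overlapped for both genes, with log2 fold changes of 0.03 ± 0.06 for Ddit3 and 0.01 ± 0.06 for Asns.

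Which mouse was highest differed by branch. Control 3 was the highest mouse for 8 and the lowest for 3 of 15 cytosolic genes, and it was the lowest for 5 of 13 ER folding genes. Hydroxyurea 4 was the highest for 7 of 13 ER folding genes. Hydroxyurea 2 was the highest for 4 of 5 ATF4 arm genes and the lowest for 5 of 15 cytosolic genes. Such counts were not made over all genes, so a pattern of the whole array cannot be told apart. The mean over cytosolic genes of each value minus its mean over the 8 mice was -0.02, -0.04, 0.00 and 0.04 in Hydroxyurea 1 to 4, against -0.05, 0.02, 0.07 and -0.02 in Control 1 to 4. For ER folding genes it was 0.06, -0.00, -0.06 and 0.11 in Hydroxyurea 1 to 4, against 0.02, -0.06, -0.07 and 0.00 in Control 1 to 4. The cytosolic mean minus the ER mean therefore came to -0.08, -0.04, 0.06 and -0.07 in Hydroxyurea 1 to 4, against -0.06, 0.08, 0.14 and -0.03 in Control 1 to 4, and the groups overlapped. For the ATF4 arm the mean was -0.03, 0.22, -0.06 and 0.05 in Hydroxyurea 1 to 4, against 0.03, -0.12, -0.05 and -0.04 in Control 1 to 4, and Hydroxyurea 2 stood above all other mice. The median log2 fold change of the cytosolic branch minus that of the ER folding branch was -0.05. It was -0.12 without Control 1, -0.10 without Hydroxyurea 3, -0.03 without Control 2 and -0.0026 without Hydroxyurea 4. With the mean of all named probes it was -0.10. There Pdia6 went from -0.04 to 0.19, through the second probe that was low in Control 1.

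**Figure D4:**
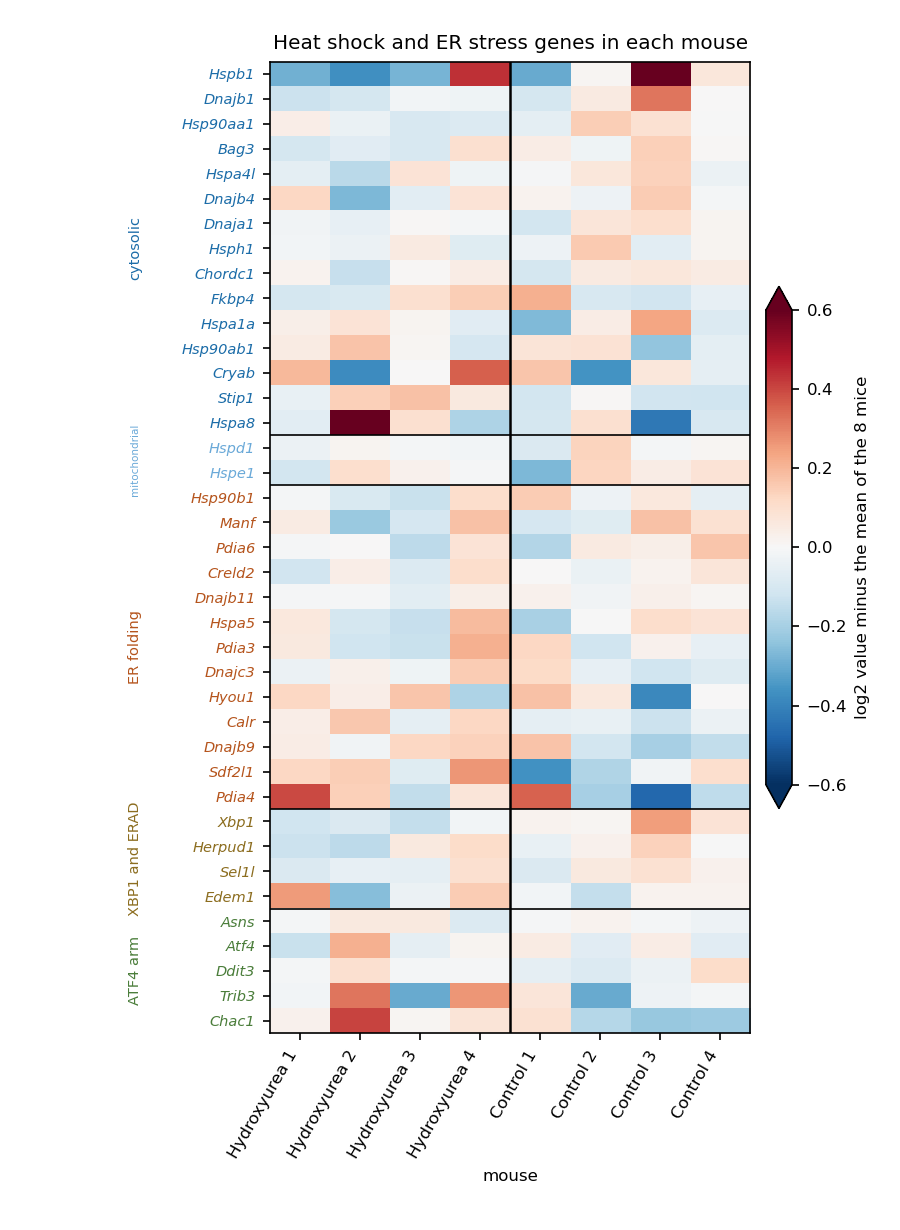
Log2 value of each gene in each mouse minus its mean over the 8 mice (colour; red above, blue below), with Hydroxyurea mice left of Control mice and genes grouped by branch. Hspb1 and Dnajb1 are red in Control 3, ER folding genes tend to red in Hydroxyurea 4, and Chac1 and Trib3 are red in Hydroxyurea 2.

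**Figure D5:**
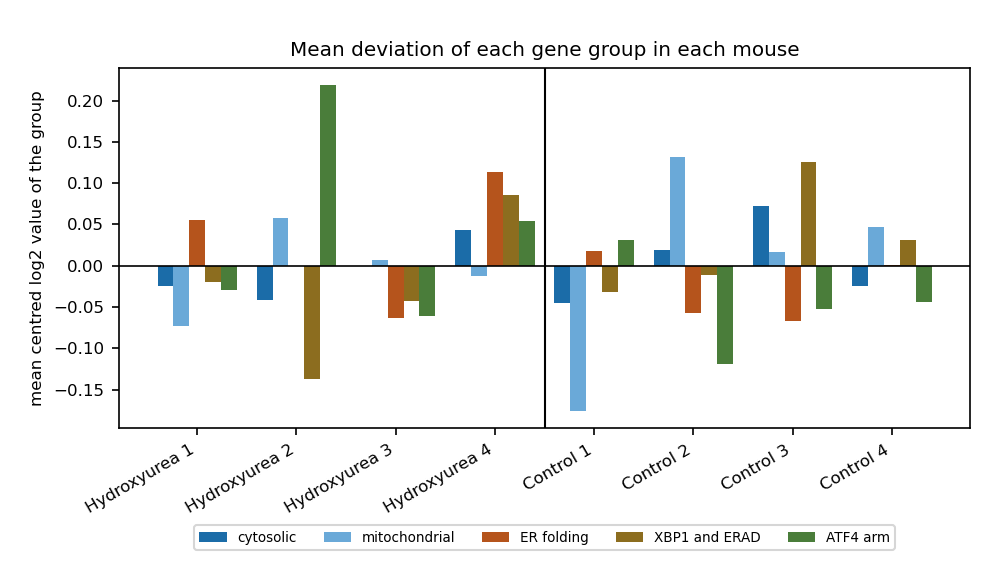
Mean over the genes of each branch of the log2 value minus the gene's mean over the 8 mice, with 1 bar per branch in each mouse and Hydroxyurea mice left of Control mice. The largest bar is that of the ATF4 arm in Hydroxyurea 2 (0.22), and bars of both signs occur in both groups.

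Tissue content and handling markers also differed between these mice. Choroid plexus markers had mean centred values of -1.18, 0.88, 0.18 and 2.62 in Hydroxyurea 1 to 4, against -1.98, -1.02, 0.82 and -0.32 in Control 1 to 4. They were highest in Hydroxyurea 4, the mouse with the highest ER folding mean. The other mice were mixed. Control 3, the highest Control mouse for these markers, had the lowest ER folding mean (-0.07), and Hydroxyurea 1, the lowest Hydroxyurea mouse, had 0.06. Control 2 was low for both, with an ER folding mean of -0.06, and Hydroxyurea 2 and Control 4 had ER folding means near 0. The summed signal of the 10 markers was 42.4 to 345 in Hydroxyurea and 30.4 to 160 in Control mice, and 10 of 10 had higher means. Immediate early genes, which answer activity and handling, had -0.23, 0.15, -0.19 and -0.16 in Hydroxyurea 1 to 4, against 0.17, -0.03, 0.19 and 0.10 in Control 1 to 4, with 9 of 10 lower. Their summed signal was 37.9 to 55.4 in Hydroxyurea and 53.5 to 61.9 in Control mice. Of these 10 genes, 3 had an unadjusted p under 0.05 in limma, all lower (against 6.36% of all genes), and 0 had groups without overlap. Ependymal markers had 0.80, -0.69, -0.56 and 1.45 in Hydroxyurea 1 to 4, against -1.49, -0.11, 0.64 and -0.06 in Control 1 to 4, with 5 of 5 higher and a median log2 fold change of 0.49. Their summed signal was 3.72 to 13.1 in Hydroxyurea and 2.47 to 7.81 in Control mice. Hippocampal neuron markers were tested for 8 of 8, of which 7 had lower means, with a median log2 fold change of -0.08. Their mean centred values were -0.11, 0.20, -0.09 and -0.20 in Hydroxyurea 1 to 4, against 0.17, 0.14, -0.34 and 0.24 in Control 1 to 4. Of the 8, 1 had an unadjusted p under 0.05 in limma (against 9.89% of all genes), and 1 had groups without overlap (against 7.5%). The part of these differences in the values of the stress genes was not tested. The 75th percentile of the signal was 1052 on Hydroxyurea 2, 1680 to 2162 on the other Hydroxyurea arrays and 1677 to 2417 on the Control arrays.

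Other genes of the same pathways, listed by role, were read from the same fit. Of 86, 85 were tested (Dnajb5 had no named probe), and 11 had an unadjusted p under 0.05 (12.9%, against 9.89% of all genes): 4 with higher values (4.71%, against 3.53%) and 7 with lower (8.24%, against 6.36%). At an adjusted p under 0.05, 0 were called. Eif2ak4, the kinase GCN2 that senses amino acid shortage and feeds the ATF4 arm, had 0.94, 0.83, 0.88 and 0.79 in Hydroxyurea 1 to 4, against 1.28, 1.14, 1.27 and 1.10 in Control 1 to 4. Every Hydroxyurea mouse lay below every Control mouse, with a log2 fold change of -0.34 ± 0.07 (unadjusted p of 0.00101 in limma, adjusted p = 0.452). Eif2ak4 was the 1 of 16 sensors and regulators with an unadjusted p under 0.05 in limma (6.25%, against 9.89% of all genes). The groups did not overlap for 2 of the 16 (12.5%, against 7.5%). Of the other sensors and regulators, Ppp1r15a, the GADD34 subunit that reverses eIF2alpha phosphorylation, had 0.13 ± 0.06 with groups that did not overlap and an unadjusted p of 0.0827 in limma. Hsf4, a heat shock factor of lens, had 0.27 ± 0.14, and Atf6, the ER sensor, had -0.18 ± 0.10.

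Among the other chaperones, 17 of 27 had higher and 10 lower means, with a median log2 fold change of 0.01. The split was 6 to 21 with median centring and 21 to 6 in the deposited z scores. Of the 27, 5 had an unadjusted p under 0.05 in limma (18.5%, against 9.89% of all genes), 1 higher and 4 lower. The groups did not overlap for 4 of 27 (14.8%, against 7.5%). Dnajb6, a J-domain protein that holds back aggregation of polyglutamine proteins, had 2.49, 2.51, 2.53 and 2.53 in Hydroxyurea 1 to 4, against 2.66, 2.71, 2.73 and 2.74 in Control 1 to 4. All Hydroxyurea mice were below all Control mice, with a log2 fold change of -0.19 ± 0.05 (unadjusted p of 0.00496 in limma, adjusted p = 0.452). Dnaja4 and Dnaja2, HSP70 co-chaperones, had -0.22 ± 0.06 and -0.17 ± 0.06, and Hspa14, an HSP70 of the ribosome, had -0.18 ± 0.06, each without overlap between groups. Hspb6, the small heat shock protein HSP20, was the 1 of those 5 with higher values and was named after its values were seen. It had -0.55, -0.38, -0.44 and 0.22 in Hydroxyurea 1 to 4, against -0.54, -0.77, -0.75 and -0.83 in Control 1 to 4. Hydroxyurea 4 stood far above the other mice and Hydroxyurea 1 overlapped with Control 1, with a log2 fold change of 0.44 ± 0.17. Among the other ER genes, 2 of 22 had an unadjusted p under 0.05 in limma (9.09%), and 1 had groups without overlap (4.55%). Edem3, a mannosidase of ERAD, had -0.22 ± 0.09 and Derl3, an ERAD channel component, had 0.22 ± 0.09. Among the other ATF4 targets, 3 of 20 had an unadjusted p under 0.05 in limma (15%), and 2 had groups without overlap (10%). Slc3a2, the heavy chain of amino acid transporters, had 0.20 ± 0.08. Shmt2, a mitochondrial enzyme of serine metabolism, had 0.19 ± 0.08, and Vldlr, a lipoprotein and reelin receptor, had -0.16 ± 0.05.

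Within the Hydroxyurea group, the 24-week mice were set against the 19-week mice, with 1 mean for each age and 1 for the Control mice in the same fit. At an adjusted p under 0.05, 0 of 39 stress genes and 0 of all genes (0%) were called. At an unadjusted p under 0.05, 1 of 39 was called (2.56%, against 2.7% of all genes). That gene was Herpud1, with 2.40 and 2.37 at 24 weeks, against 2.59 and 2.64 at 19 weeks. Both older mice lay below both younger ones, with a log2 difference of -0.23 ± 0.09 (SE, n = 2 per age; unadjusted p of 0.0391 in limma, adjusted p = 1.0). The call was lost without the filter on dim probes and without each of the 4 Hydroxyurea mice in turn, and the 1 gene called without Hydroxyurea 1 was Hspa8. All 4 genes of the XBP1 and ERAD branch had lower and all 5 of the ATF4 arm higher means at 24 weeks. Over all 16618 genes, 7402 were higher and 9216 lower. The median log2 difference was -0.07 for that branch and 0.06 for that arm, against -0.02 over all genes. Apart from Herpud1 and Chac1, the difference of each of these genes was smaller than its SE. Fkbp4 had -0.22 ± 0.12, and the dim array Hydroxyurea 2 is 1 of only 2 mice at 24 weeks.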

How the data were processed

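Hippocampal RNA of 4 Hydroxyurea and 4 Control mice was labelled with Cy3 and hybridised to 1-colour Agilent arrays. Per the file headers, Feature Extraction 12.0.3.1 gave each spot a processed signal intensity, which the authors deposited without scaling between arrays, beside median spot and local background intensities and flags. A flag marks spots well above background or outliers, per the file headers. Values in the authors' deposited table are a z score of each array's log signal (a recomputation differed by at most 0.005), so it was used for counts and signs only.

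Of 55681 non-control probes, 28331 were named through RefSeq accessions in a GRCm38.p6 gene table (the headers name build mm9), giving 21368 genes. The value used was log2 of the processed signal minus each array's 75th percentile, with spots of a probe averaged without outliers and the brightest probe standing for each of 5754 genes with several. Genes with a value on at least 6 of 8 arrays, and well above background on 4 or more, were tested (16618) with lmFit and eBayes of limma 3.58.1 (R 4.3.3); p-values are two-sided and were adjusted by Benjamini-Hochberg. Precision is limited by 4 arrays per group. The fits were tested on simulated data. There, 46.3% of planted 1.5-fold and 85.1% of 2-fold changes between the groups passed at an adjusted p under 0.05 in limma. Normexp was planned for mean spot signals and run on median signals, with an offset of 50.

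The 40 genes, the pathway and marker lists, the tests and the alternatives were chosen with earlier results of these data known. Values per mouse are given for a fixed set of 17 genes, except Hspa1b, which had no named probe, and for the 4 genes of each branch with the smallest p. Up to 4 further genes per pathway list, and Hspb6, are named, most of them by log2 fold change only. Alternatives covered scaling, background, filter, probe rule, variance model, replicate block, age and each mouse left out. Promoter windows came from RefSeq.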

Additional observations from a re-analysis of the deposited data

Results flagged for a closer look

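In 4 of 88 groups of 4 mice examined, 1 mouse stood apart from the other 3 by more than Dixon's 95% critical value of 0.829; chance alone flags about 1 in 20 groups. For Hspb1, Hydroxyurea 4 had a log2 value of 2.39 and the other Hydroxyurea mice 1.58 to 1.67, a gap of 0.891 of the group's range. For Ddit3, Hydroxyurea 2, the array with the lowest 75th percentile, had 0.39 and the other Hydroxyurea mice 0.28 to 0.29 (0.961). For Chordc1, Control 1, the array with the most variable replicate spots, had 2.09 and the other Control mice 2.25 to 2.26 (0.899). For Stip1, Control 2 had 2.19 and the other Control mice 2.06 to 2.07 (0.943).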

How the results depend on the processing

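At an adjusted p under 0.05, 0 genes passed between the groups under any of 19 other settings or in the value table, and the smallest adjusted p of a stress gene over them was 0.125 (Dnajb9, with array weights). At an unadjusted p under 0.05 the count of stress genes, 2 as reported, was 1 with median centring, with normexp, without the filter on dim probes, in 19-week mice only and with the replicate block. It was 4 with the trended robust variance model and with array weights, and 0 to 4 with 1 mouse left out (0 without Hydroxyurea 2 or Control 3, 4 without Control 1). Over all 16618 genes the count of 1643 became 2132 with median centring, 1963 with normexp, 1103 in 19-week mice only and 1317 with the replicate block. It became 1753 with the trended robust variance model, 3517 with array weights, and 2483 of 21368 genes without the filter. In each of these settings, all mice left out singly aside, the share of stress genes was below that of all genes. Without Hydroxyurea 3, where 3 of 39 stress genes were called, their share was slightly above that of all genes. With 1 mouse left out the count over all genes was 1110 to 2522. With median centring the median log2 fold changes were -0.12 for cytosolic, -0.07 for ER folding and -0.13 for XBP1 and ERAD genes. Without Control 1 and Hydroxyurea 2 together the ER folding median was 0.094 and the cytosolic minus ER difference -0.14. The age comparison called 0 stress genes without the filter, and 0 to 1 with 1 Hydroxyurea mouse left out (0 without Hydroxyurea 2, 3 or 4, and Hspa8 in place of Herpud1 without Hydroxyurea 1); over all genes at an adjusted p under 0.05, it called 0 to 7 (1 without Hydroxyurea 3 and 7 without Hydroxyurea 4), with a lone mouse assumed to vary like the others. Of the promoter counts, the heat shock pair in 8 cytosolic genes became 2 with the longer run and 3 with the tail to tail pair, and the C/EBP-ATF element in 3 ATF4 arm genes became 1 with the fixed letter. Deviations of same-numbered mice of the 2 groups correlated at 0.05, 0.20, -0.21 and -0.06. The Control mouse with the highest correlation was the same-numbered one for Hydroxyurea 1 and 2, and another one for Hydroxyurea 3 and 4. These few values cannot decide whether the numbers stand for a pairing. With the replicate block 1 stress gene (Pdia4) and 1317 genes had an unadjusted p under 0.05 in limma, and 0 passed after adjustment. The cause of these shifts was not tested. Of 39 stress genes, 16 kept the sign of the log2 fold change in all 19 other settings that give one, and 23 did not. Of the 16, 4 had the other sign in the value table (Hspa4l, Hsp90aa1, Dnajb1 and Hsp90b1). With quantile scaling, the sign turned for Hsp90ab1 (-0.010), Atf4 (-0.023), Dnajb11 (0.0076) and Hyou1 (-0.0024). With median centring, the sign turned for Hsp90ab1 (-0.017), Atf4 (-0.063), Asns (-0.069), Hspa5 (-0.078), Hspe1 (-0.076), Pdia3 (-0.072), Dnajc3 (-0.018), Edem1 (-0.024), Fkbp4 (-0.058), Ddit3 (-0.050), Hspa1a (-0.050) and Hyou1 (-0.011). With normexp, the sign turned for Atf4 (-0.062), Asns (-0.081), Hspe1 (-0.065), Pdia3 (-0.049), Chordc1 (0.015), Fkbp4 (-0.0025), Ddit3 (-0.020) and Dnajb4 (0.015). With the mean of all named probes, the sign turned for Dnaja1 (0.013), Pdia6 (0.19) and Hspe1 (-0.018). In 19-week mice only, the sign turned for Hsp90ab1 (-0.013), Atf4 (-0.011), Asns (-0.0050), Herpud1 (0.054), Chordc1 (0.0080), Manf (0.013) and Hspa1a (-0.0099). With array weights, the sign turned for Hspa5 (-0.060), Hspe1 (-0.087) and Ddit3 (-0.031). Without Control 1 and Hydroxyurea 2 together, the sign turned for Atf4 (-0.029), Asns (-0.0039), Hspa5 (-0.025), Hspe1 (-0.12), Ddit3 (-0.0077), Hspa1a (-0.073) and Dnajb4 (0.011). Leaving out 1 mouse at a time gave 0.083 to 0.37 for Hspa8, -0.0020 to 0.11 for Hsp90ab1, -0.12 to -0.055 for Hsp90aa1, -0.049 to 0.067 for Atf4, -0.082 to -0.011 for Dnaja1, -0.065 to 0.0091 for Hsph1, -0.0043 to 0.043 for Asns, -0.11 to -0.024 for Hsp90b1, -0.061 to 0.051 for Hspa5, -0.057 to 0.015 for Hspd1, -0.11 to 0.0091 for Pdia6, -0.19 to -0.052 for Dnajb1, -0.083 to 0.050 for Hspe1, -0.21 to -0.13 for Xbp1, -0.016 to 0.23 for Cryab, 0.10 to 0.17 for Calr, -0.12 to -0.041 for Hspa4l, -0.038 to -0.0051 for Dnajb11, -0.11 to -0.017 for Herpud1, -0.060 to 0.056 for Pdia3, -0.067 to 0.0069 for Creld2, -0.074 to 0.0065 for Chordc1, 0.13 to 0.21 for Stip1, -0.43 to -0.048 for Hspb1, -0.085 to -0.022 for Sel1l, 0.10 to 0.22 for Dnajb9, -0.12 to 0.018 for Manf, 0.17 to 0.33 for Chac1, 0.023 to 0.11 for Dnajc3, -0.018 to 0.15 for Edem1, -0.021 to 0.10 for Fkbp4, -0.13 to -0.051 for Bag3, 0.0053 to 0.073 for Ddit3, 0.15 to 0.30 for Sdf2l1, -0.052 to 0.12 for Hspa1a, 0.12 to 0.39 for Pdia4, -0.12 to 0.014 for Dnajb4, 0.049 to 0.26 for Trib3 and -0.046 to 0.14 for Hyou1. The z scores of the value table gave counts and signs but no log2 fold changes. Signal over background and 4 arrays per group limit precision.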
